A study of Mus musculus with 24 samples.

Results

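The 10 genes described here encode the machinery of major histocompatibility complex (MHC) antigen presentation. They were taken from the count table by their mouse gene symbols, H2-K1, H2-D1, B2m, Tap1, Tap2, Tapbp, Psmb8, Psmb9, H2-Ab1 and Cd74. They are 10 of the 18647 genes in the table, and all 10 passed the filter on low counts that left 18153 genes for testing. No measured value was used to choose them, although earlier results of these data were known when the set was proposed.

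RNA was sequenced from the CA1 subfield of the hippocampus, microdissected from 400 µm slices of adult C57Bl/6N mice of at least 60 days and 20 g. Mice of the SE groups received scopolamine methyl nitrate at 1 mg/kg and, 20 min later, pilocarpine at 335 mg/kg, a muscarinic agonist that induces status epilepticus (SE), a prolonged seizure. The seizure was ended with diazepam at 4 mg/kg, only mice that had experienced SE were used, and CA1 was taken 6, 12, 24, 36 or 72 h after SE. Controls (Ctr) received saline in place of pilocarpine and were sampled at 12, 36 and 72 h, so that SE at 6 h and 24 h has no control of its own time and was compared with the mean of the 3 control groups. Each of the 8 groups held 3 libraries, 24 in all. Scopolamine, diazepam and the dissection were common to all groups, and the labels name no transgene.

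MHC class I molecules consist of a heavy chain, here H2-K1 or H2-D1, and the light chain beta-2 microglobulin (B2m), and they display peptides from proteins made inside the cell to CD8 T cells. The peptides are cut by proteasomes whose standard catalytic subunits are replaced by interferon-inducible ones such as Psmb8 and Psmb9, pumped into the endoplasmic reticulum by the Tap1 and Tap2 transporter, and loaded with the help of tapasin (Tapbp). Class II molecules, of which H2-Ab1 is a beta chain and Cd74 the invariant chain that guards the peptide groove, display peptides from engulfed material to CD4 T cells. In the healthy brain both classes are kept low, class II is largely a property of macrophages at the brain borders, and microglia are known to take up class I and class II expression when activated.

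Of the 10 genes, 8 lie in the MHC region of chromosome 17 (build GRCm39, gene spans from the GENCODE annotation). Tapbp (ENSMUSG00000024308.16) spans chr17:34134873-34148267 and H2-K1 (ENSMUSG00000061232.17) chr17:34214987-34219321. Psmb9 (ENSMUSG00000096727.4) spans chr17:34400960-34406738, Tap1 (ENSMUSG00000037321.18) chr17:34405996-34416199, Psmb8 (ENSMUSG00000024338.16) chr17:34416690-34420428 and Tap2 (ENSMUSG00000024339.13) chr17:34422501-34435829, so that both transporter and both immunoproteasome genes are neighbours. H2-Ab1 (ENSMUSG00000073421.7) spans chr17:34476663-34488393 and H2-D1 (ENSMUSG00000073411.13) chr17:35481691-35486475. Outside the region, B2m (ENSMUSG00000060802.9) spans chr2:121977957-121983594 and Cd74 (ENSMUSG00000024610.16) chr18:60936899-60945731.

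Reads were counted without regard to strand, which bears on neighbours and on copies. Exons of Tap1 and Psmb9 overlap on opposite strands over 743 bases, 12.4% of the exonic length of Tap1 and 19.6% of that of Psmb9, so reads from this stretch cannot be assigned to either gene by strand. Antisense transcripts, not among the genes tested, overlap 26.8% of the exonic length of H2-K1 and 24.2% of that of H2-D1, and Zbtb22 overlaps 20.9% of that of Tapbp. These overlaps come from a later GENCODE release than the authors counted with, so their effect on the deposited counts is not known. H2-K1 and H2-D1 also resemble each other and other class I genes closely. HTSeq's default, kept by the authors, leaves out reads aligned to several places. Levels of these copies therefore rest on the remaining reads, and how many were left out per gene is not known.

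Promoter sequences (250 bases before the RefSeq transcription start, placed on GRCm39 by exact match) were found for 7 of the 10 genes, H2-K1, H2-D1, B2m, Tap1, Tapbp, Psmb8 and Psmb9. The first 3 sequences below are shown because they belong to the 3 genes with the highest levels in every SE 72 h library, the chains of the class I molecule itself, and the fourth because Tap1 shares it with Psmb9. They lie at chr17:34219322-34219571 on the minus strand (H2-K1), chr17:35481820-35482069 on the plus strand (H2-D1), chr2:121977918-121978167 on the plus strand (B2m) and chr17:34406280-34406529 on the plus strand (Tap1). Capitals mark matches to 6 short elements, searched on both strands and chosen with these sequences known.
H2-K1: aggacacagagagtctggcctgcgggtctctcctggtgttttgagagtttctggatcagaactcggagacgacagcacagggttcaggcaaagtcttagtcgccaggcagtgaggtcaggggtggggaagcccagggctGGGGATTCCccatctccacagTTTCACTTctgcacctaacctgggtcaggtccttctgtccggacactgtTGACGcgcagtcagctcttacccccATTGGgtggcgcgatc
H2-D1: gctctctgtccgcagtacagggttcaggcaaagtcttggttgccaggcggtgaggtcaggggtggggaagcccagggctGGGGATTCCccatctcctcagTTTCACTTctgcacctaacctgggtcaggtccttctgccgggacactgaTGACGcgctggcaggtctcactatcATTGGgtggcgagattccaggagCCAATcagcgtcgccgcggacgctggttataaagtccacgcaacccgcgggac
B2m: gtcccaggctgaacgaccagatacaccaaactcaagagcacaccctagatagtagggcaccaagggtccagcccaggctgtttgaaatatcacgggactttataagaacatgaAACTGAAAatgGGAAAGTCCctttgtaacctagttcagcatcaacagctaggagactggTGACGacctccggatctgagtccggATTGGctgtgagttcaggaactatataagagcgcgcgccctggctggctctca
Tap1: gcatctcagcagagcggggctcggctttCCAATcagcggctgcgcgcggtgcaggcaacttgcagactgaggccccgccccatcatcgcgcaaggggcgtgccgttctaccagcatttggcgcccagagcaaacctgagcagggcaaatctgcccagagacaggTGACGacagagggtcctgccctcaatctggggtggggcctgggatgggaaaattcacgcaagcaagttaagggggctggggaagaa

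The elements were an interferon regulatory factor (IRF) element (AANNGAAA), kappaB sites of the H-2 type (GGGNATTCC) and of the immunoglobulin type (GGACTTTCC), a gamma-activated site (GAS, TTCNNNGAA), the X2 core (TGACG) and the Y box (CCAAT). In H2-K1 the kappaB site lies at -111 to -103, the IRF element at -90 to -83, the X2 core at -41 to -37 and the Y box at -16 to -12, counted from the transcription start. H2-D1 holds the same 4 elements in the same order, from -171 to -72, and a second CCAAT at -53 to -49. In B2m the order of the first 2 is exchanged, with the IRF element at -137 to -130 ahead of a kappaB site of the immunoglobulin type at -126 to -118, followed by the X2 core at -78 to -74 and the Y box at -53 to -49. The start of the X2 core and the start of the Y box are 25 bases apart in all 3 promoters. This spacing, taken from these promoters, was found in 13 of 11785 promoters (0.11%). The 13 include these 3 and that of the class I gene H2-M3, and the others belong to genes outside class I.

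Over these 7 promoters, 3 held the IRF element (16.1% of all 11785 promoters did), 2 the H-2 kappaB site (0.696%), 1 the immunoglobulin kappaB site (0.356%), 5 the X2 core (25.4%) and 6 the Y box (35.8%). The GAS was matched in Psmb8 alone of the 7 (5.89% of all promoters). Tap1 and Psmb9 start 226 bases apart on opposite strands, so 225 bases are shared between their promoters, X2 core and Y box included. The promoters of H2-K1 and H2-D1 had the same base at 89.5% of aligned positions (170 identical and 20 different). These matches are descriptions of letters, and binding was not measured.

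**Figure D1:**
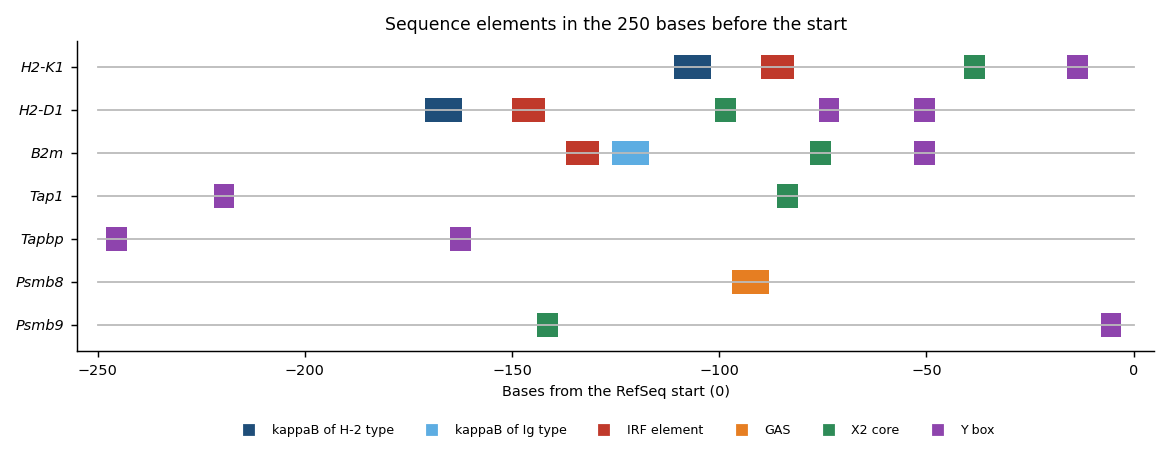
Positions of the matched elements in the 7 promoters, as distance from the RefSeq start in bases (x axis), 1 line per gene and 1 colour per element. H2-K1, H2-D1 and B2m show kappaB, IRF, X2 and Y elements, and their X2 core and Y box keep a spacing of 25 bases.

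Library totals ran from 2663936 to 30133731 counts (median 13521590), with 9328095 to 30133731 in SE and 2663936 to 27648010 in Ctr libraries. The dissection was reflected in neuronal markers, which summed to 9300 to 15800 counts per 1e6 counts (CPM) in Ctr and 6040 to 10400 in SE, and in CA1 pyramidal markers at 355 to 1080 and 266 to 740 CPM. Ctr 72 h replicate 2 (5793721 counts) stood apart: genes of sensory ganglia, which CA1 does not contain, summed to 3160 CPM there against 85.7 to 207 in the other 8 Ctr libraries. The same sum reached 1430 in SE 12 h replicate 1, 1730 in SE 36 h replicate 3, and 1870 and 1030 in SE 72 h replicates 1 and 2. The unwanted-variation factor (RUVr) used in the fit was 0.80 in Ctr 72 h replicate 2, -0.38 and -0.37 in the other Ctr 72 h libraries, and -0.10 to 0.14 elsewhere, so values that involve 72 h are also given without it where that ends a call. The labels also number the libraries, in ranges of 92 to 104, 109 to 122 and 162 to 169, used as a factor in an alternative processing. The first range held all SE 24 h libraries and no control, and the last all Ctr 72 h libraries and no SE 72 h library. Within the 24 h and 72 h comparisons, SE and label range therefore cannot be told apart.

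Compared with controls, 4 of the 10 genes were higher at 6 h, 5 were at 12 h, 6 were at 24 h, and 9 were at both 36 h and 72 h. A gene was called where edgeR's quasi-likelihood test gave a Benjamini-Hochberg adjusted p of at most 0.05 over all genes and the log2 fold change (log2FC) was at least 0.66 in size. Over all 18153 genes, 15.8%, 13.9%, 14.9%, 12.7% and 15.2% were called higher in these 5 comparisons, in order of time. Lower calls were 1 of the 10 genes at 6 h (Psmb9) and 0 at each later time, against 6.21%, 11.4%, 9.21%, 8.91% and 4.21% of all genes, and after 6 h 0 of the 10 were lower even at an unadjusted p of 0.05. The median log2FC of the 10 genes was 0.56, 0.83, 0.91, 1.5 and 2.17 at the 5 times, and that of all genes 0.06, 0.01, 0.04, 0 and 0.1. The controls of 6 h and 24 h are shared, so their values are set side by side only.

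H2-K1, H2-D1 and H2-Ab1 were called higher at all 5 times, Psmb8 from 12 h, and B2m and Tap1 from 24 h. Tap2, Tapbp and Psmb9 were called higher at 36 h and 72 h, and Cd74 at 6 h and 12 h. At both 36 h and 72 h, 7 of the 9 calls held under every alternative processing that tested the gene, those of H2-K1, H2-D1, B2m, Tap1, Tap2, Tapbp and Psmb8. With bulk tissue, more cells that express a gene and more RNA per cell cannot be told apart, for any of these values.

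**Figure D2:**
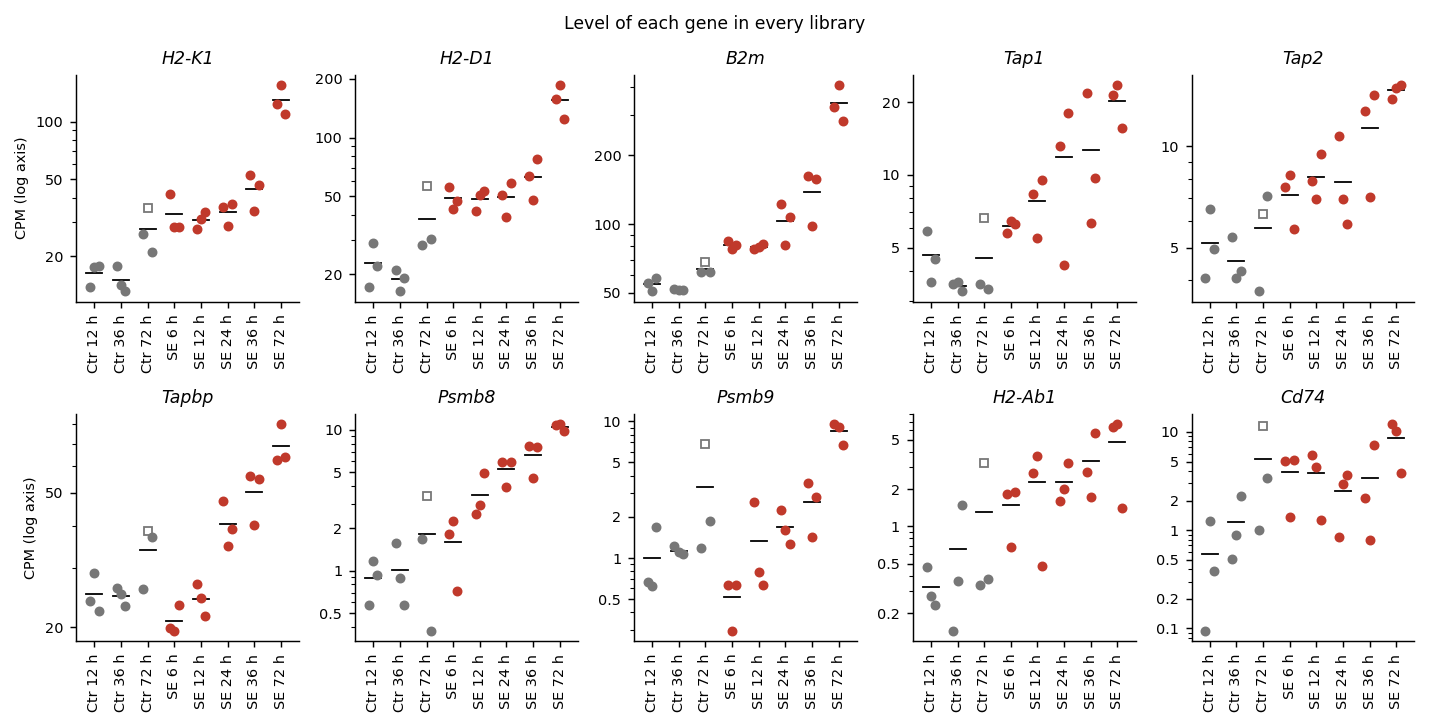
CPM of each of the 10 genes in every library (y axis, log scale) by group (x axis), 1 point per library and 3 libraries per group. The open square is Ctr 72 h replicate 2, the highest control in 9 of the 10 genes. H2-K1, H2-D1 and B2m sit highest in the 3 SE 72 h libraries.

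**Figure D3:**
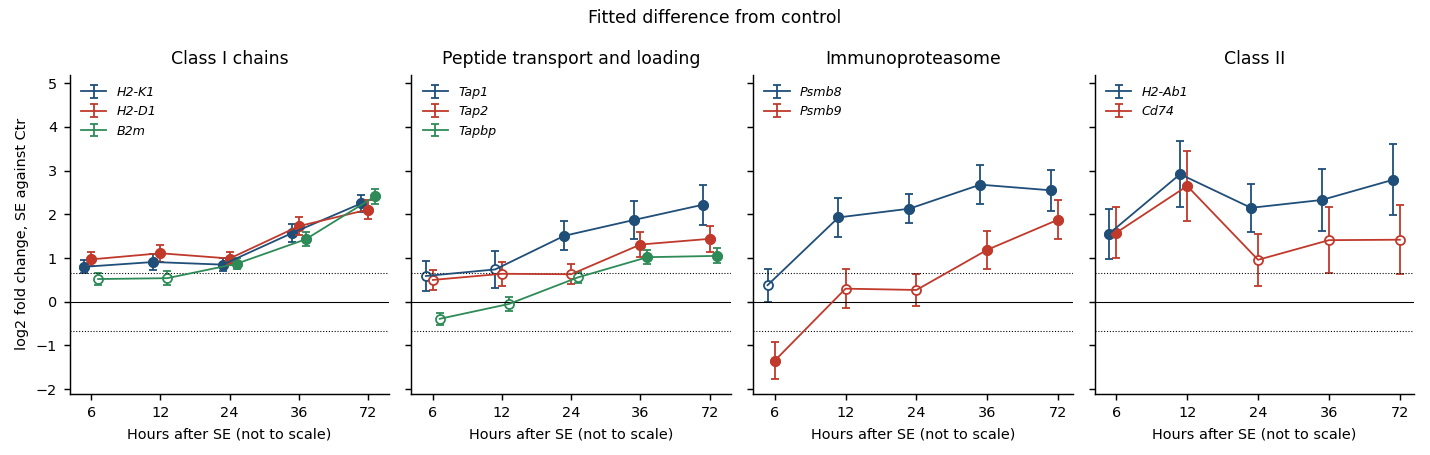
Log2FC of each gene in SE against its controls (y axis) by hours after SE (x axis), with the standard error of the fit as bars and 3 SE libraries per time. Filled points are called and open points are not, and the dotted lines mark a log2FC of 0.66 in size. The median of the 10 genes is 0.56 at 6 h and 2.17 at 72 h, and the bars of H2-Ab1 and Cd74 are the widest.

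The class I light chain B2m was the most abundant of the 10 genes per length, at 26 CPM per kb of exon at Ctr 12 h and 161 at SE 72 h. Its level was 55.4, 50.7 and 58.0 CPM at Ctr 12 h, 51.9, 51.2 and 51.3 at Ctr 36 h, and 61.5, 68.2 and 61.9 at Ctr 72 h. After SE it was 84.4, 77.5 and 81.1 CPM at 6 h, 78.0, 79.7 and 81.7 at 12 h, 123, 80.8 and 107 at 24 h, 162, 98.1 and 157 at 36 h, and 325, 408 and 282 at 72 h. All 15 SE libraries lay above all 9 controls. The log2FC was 0.52 ± 0.13 (s.e.) at 6 h and 0.54 ± 0.16 at 12 h, below the required size although adjusted p was 0.00325 and 0.012. B2m rose by 0.87 ± 0.13 at 24 h (adjusted p = 1.77e-05), 1.43 ± 0.16 at 36 h (1.76e-06) and 2.41 ± 0.17 at 72 h (4.99e-09), the last a 5.31-fold difference.

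H2-K1, a classical class I heavy chain, measured 13.8, 17.5 and 17.8 CPM at Ctr 12 h, 17.8, 14.1 and 13.1 at Ctr 36 h, and 26.1, 35.6 and 21 at Ctr 72 h. In SE libraries it was 42.0, 28.3 and 28.4 CPM at 6 h, 27.8, 31.2 and 33.7 at 12 h, 36.1, 28.6 and 37.4 at 24 h, 52.9, 34.4 and 46.6 at 36 h, and 124, 155 and 109 at 72 h. The highest control was Ctr 72 h replicate 2: 8 of 15 SE libraries lay above all 9 controls, and 15 of 15 above the other 8. H2-K1 rose at each time, by 0.80 ± 0.15 (6 h, adjusted p = 0.000333), 0.91 ± 0.19 (12 h, 0.000982), 0.85 ± 0.15 (24 h, 0.000164), 1.57 ± 0.20 (36 h, 4.33e-06) and 2.25 ± 0.20 (72 h, 8.46e-08). The values up to 24 h differ by less than their standard errors, and the 72 h value is a 4.75-fold difference. Without SE 6 h replicate 1 the value at that time was 0.59 (adjusted p = 0.00821), under the required size.

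H2-D1, the other classical heavy chain, followed the same course at a somewhat higher level. It measured 17.1, 29.0 and 21.9 CPM at Ctr 12 h, 21.1, 16.3 and 19.1 at Ctr 36 h, and 28.3, 56.8 and 30.4 at Ctr 72 h. After SE it was 56, 43.3 and 47.6 CPM at 6 h, 41.9, 50.7 and 53.4 at 12 h, 51.0, 39.4 and 58.4 at 24 h, 63.4, 47.7 and 77.2 at 36 h, and 158, 186 and 125 at 72 h. Again 15 of 15 SE libraries lay above the controls other than Ctr 72 h replicate 2, and 6 of 15 above that library too. H2-D1 rose by 0.97 ± 0.16 (6 h, adjusted p = 7.01e-05), 1.11 ± 0.20 (12 h, 0.000271), 0.99 ± 0.16 (24 h, 4.68e-05), 1.73 ± 0.21 (36 h, 2.59e-06) and 2.11 ± 0.21 (72 h, 2.97e-07). Of the calls at 6 h, that of H2-D1 alone held under every alternative processing.

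Heavy and light chain transcripts were also compared with each other. Per kb of exon, the ratio of H2-D1 to H2-K1 was 1.46 ± 0.262 (SD, n = 3) at Ctr 12 h, and group means ran from 1.28 at SE 72 h to 1.67 at SE 12 h. The ratio of B2m to H2-K1 was 5.12 ± 0.855 at Ctr 12 h and 3.94 ± 0.0395 at SE 72 h, with group means of 3.64 to 5.27. Over the 24 libraries, log2 CPM of H2-K1 correlated with that of H2-D1 at r = 0.98 and with that of B2m at r = 0.96, a description over libraries that share groups and dissection.

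Levels were also compared between consecutive SE times. In this comparison, with a required log2FC of 1, 4 of the 10 genes were called higher from 36 h to 72 h, and 0 of the 10 from 6 h to 12 h, 12 h to 24 h or 24 h to 36 h. Of all genes, 3.08%, 0.446%, 1.47% and 0.347% were called higher in these steps. At an unadjusted p under 0.05, 5 of the 10 were higher in the last step and 2 in each earlier one, and DESeq2 and limma-voom each gave 4 calls over the 4 steps. From 36 h to 72 h, H2-K1 rose by 1.53 ± 0.19 (adjusted p = 4.55e-05), H2-D1 by 1.32 ± 0.20 (0.000296), B2m by 1.28 ± 0.16 (5.8e-05) and Psmb9 by 1.68 ± 0.41 (0.0124). The call of Psmb9 was lost without SE 36 h replicate 2 (1.37, adjusted p = 0.0964) and without the RUVr factor (1.7, 0.075). These steps do not take the controls into account, and against controls of the same time the growth from 36 h to 72 h was 0.68 ± 0.27 for H2-K1 (adjusted p = 0.15), 0.38 ± 0.29 for H2-D1 (0.463) and 0.69 ± 0.62 for Psmb9 (0.558), none of them called. From 12 h to 36 h it was 0.66 ± 0.27, 0.62 ± 0.28 and 0.89 ± 0.61 for the same genes (0.174, 0.222 and 0.441), and the difference between the intervals was not tested. Between SE libraries, Tapbp was higher at 24 h than at 12 h by 0.73 ± 0.16 with an adjusted p of 0.00929, short of the required size.

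The effect of SE itself was larger at later times for 4 genes. The difference between SE and Ctr at 72 h exceeded that at 12 h by 1.86 ± 0.23 on the log2 scale for B2m (edgeR, adjusted p = 3.48e-05), 1.33 ± 0.27 for H2-K1 (0.00214), 1.1 ± 0.23 for Tapbp (0.00255) and 1 ± 0.29 for H2-D1 (0.0168), where 12.3% of all genes were called higher. Between 12 h and 36 h it grew by 1.07 ± 0.23 for Tapbp (0.0164) and 0.89 ± 0.23 for B2m (0.0363), against 1.99% of all genes, and between 36 h and 72 h by 0.97 ± 0.23 for B2m (0.0198), against 3.69%. The growth of B2m between 12 h and 36 h missed the threshold without any 1 of 10 of the 12 libraries compared, at 0.76 without SE 36 h replicate 1 (adjusted p = 0.0985), that of Tapbp without Ctr 36 h replicate 3 (1.02, 0.0519), and that of B2m after 36 h without SE 72 h replicate 2 (0.82, 0.0542). That of H2-D1 from 12 h to 72 h missed it without Ctr 12 h replicate 2 (0.77, 0.0593) or Ctr 72 h replicate 1 (0.79, 0.0781), and without the RUVr factor (0.92, 0.0731). With ranges of label numbers in the model, both shorter growths of B2m missed the threshold (0.89, 0.0514, and 1.02, 0.0811), as did that of H2-D1 (0.86, 0.12). Without the RUVr factor, B2m missed it from 12 h to 36 h (0.89, 0.0508). Without both Ctr 72 h replicate 2 and SE 72 h replicate 1, B2m missed it from 36 h to 72 h (1.05, 0.0509). For the class II genes no such growth was called: the same difference between 72 h and 12 h was -0.13 ± 1.08 for H2-Ab1 (adjusted p = 0.955) and -1.22 ± 1.12 for Cd74 (0.463), with standard errors too wide to exclude a growth of the size seen for B2m in H2-Ab1.

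Levels in saline controls moved as well. From Ctr 36 h to Ctr 72 h, H2-K1 was higher by 0.86 ± 0.20 (edgeR, adjusted p = 0.0292) and H2-D1 by 0.94 ± 0.21 (0.0234), with 0.711% of all genes called higher. Without Ctr 72 h replicate 2 these became 0.67 (adjusted p = 0.20) and 0.63 (0.264), and neither call remained. Both calls were also lost without any 1 of the 3 Ctr 36 h libraries, with adjusted p of 0.0651 to 0.114, and without the RUVr factor (0.89, 0.0594, and 1.03, 0.0629). Among the 10 genes, 0 were called higher between Ctr 12 h and Ctr 36 h or between Ctr 12 h and Ctr 72 h, where 0% and 0.325% of all genes were. At an unadjusted p under 0.05 these counts were 0 and 5, and DESeq2 called H2-K1 (0.75, adjusted p = 0.0244) and Cd74 (2.56, 0.0419) higher at Ctr 72 h than at Ctr 12 h.

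The peptide transporter genes were called from 24 h (Tap1) and 36 h (Tap2), and whether they differed in time from the heavy chains was not tested. Tap1 measured 3.29 to 6.65 CPM in the 9 controls, 5.75, 6.47 and 6.28 at SE 6 h, 8.35, 5.47 and 9.48 at SE 12 h, 13.2, 4.22 and 18.1 at SE 24 h, 21.9, 6.31 and 9.69 at SE 36 h, and 21.5, 23.6 and 15.7 at SE 72 h. Replicate 2 was the lowest library at 12 h, 24 h and 36 h, each time within the range of the 9 controls. Tap1 rose by 1.51 ± 0.33 at 24 h (adjusted p = 0.00106), 1.87 ± 0.43 at 36 h (0.00246, but 1.19 without SE 36 h replicate 1) and 2.22 ± 0.46 at 72 h (0.00121). At 6 h and 12 h the log2FC was 0.59 ± 0.35 and 0.74 ± 0.42 (0.187 and 0.178).

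Tap2, the partner subunit, had a smaller log2FC than Tap1 at each time, a difference that was not tested. It measured 3.71 to 7.12 CPM in controls, and 13.8, 14.9 and 15.2 at SE 72 h. At 36 h it was 12.7, 7.09 and 14.2 CPM, again with replicate 2 lowest. Tap2 rose by 1.31 ± 0.28 at 36 h (adjusted p = 0.00137) and 1.44 ± 0.30 at 72 h (0.0013), a 2.72-fold difference at 72 h. At 24 h the log2FC was 0.63 ± 0.23 (0.0325), just under the required size, and at 6 h and 12 h 0.50 ± 0.23 and 0.64 ± 0.28 (0.0886 and 0.0771). Per kb of exon, Tap1 and Tap2 stood at 0.774 and 1.09 CPM at Ctr 12 h and at 3.37 and 3.08 at SE 72 h.

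Tapbp, which bridges the transporter and the empty class I molecule, was not higher at 6 h or 12 h. It measured 19.9, 19.5 and 23.3 CPM at SE 6 h and 26.8, 24.4 and 21.6 at SE 12 h, against 22.3 to 38.5 in the 9 controls. At SE 24 h it was 47.3, 34.9 and 39.1 CPM, at 36 h 56, 40.1 and 54.8, and at 72 h 62.5, 79.9 and 63.9, and the SE and control libraries of 36 h and of 72 h did not overlap. The log2FC was -0.39 ± 0.14 at 6 h (adjusted p = 0.0296, below the required size), -0.05 at 12 h (0.85) and 0.56 ± 0.13 at 24 h (0.00175, below the required size). Tapbp rose by 1.02 ± 0.16 at 36 h (7.2e-05) and 1.05 ± 0.17 at 72 h (8.21e-05), a 2.08-fold difference at 72 h.

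Of the immunoproteasome genes, Psmb8 was called higher from 12 h and Psmb9 from 36 h, and whether they differed in time was not tested. Controls held 0.375 to 3.41 CPM of Psmb8, with Ctr 72 h replicate 2 highest. SE libraries held 1.84, 2.25 and 0.722 CPM at 6 h, 2.53, 2.95 and 4.94 at 12 h, 5.95, 3.92 and 5.96 at 24 h, 7.71, 4.57 and 7.52 at 36 h, and 10.9, 11 and 9.84 at 72 h. From 24 h on every SE library lay above every control. At 6 h the log2FC was 0.38 ± 0.38 (adjusted p = 0.45), and Psmb8 then rose by 1.93 ± 0.45 (12 h, 0.00233), 2.13 ± 0.33 (24 h, 3.7e-05), 2.68 ± 0.45 (36 h, 0.000136) and 2.55 ± 0.47 (72 h, 0.000399).

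Psmb9, which starts beside Tap1 on the other strand, lay lower at 6 h and higher at 72 h. It measured 0.639, 0.294 and 0.637 CPM at SE 6 h against 0.622 to 6.82 in controls, where the highest value again came from Ctr 72 h replicate 2 and the next was 1.87. At SE 12 h it was 2.58, 0.796 and 0.637 CPM, at 24 h 2.23, 1.61 and 1.26, at 36 h 3.56, 1.42 and 2.79, and at 72 h 9.53, 9.06 and 6.72, overlapping with Ctr 72 h through that library. Psmb9 fell by 1.35 ± 0.42 on the log2 scale at 6 h (log2FC -1.35, adjusted p = 0.0145), rose by 1.19 ± 0.43 at 36 h (0.0413) and by 1.88 ± 0.45 at 72 h (0.00385). The 72 h value was 1.35 without the RUVr factor (adjusted p = 0.103), and without Ctr 72 h replicate 1 it was 1.33 (0.0658). The 36 h call was also lost without the factor (0.145) and without any 1 of 5 of the 6 libraries compared, SE 36 h replicate 2 being the exception. The 6 h call was lost without SE 6 h replicate 2 (-1.11, 0.0861) and without Ctr 72 h replicate 2 (-1.11, 0.0659). At 12 h and 24 h the log2FC was 0.30 ± 0.44 and 0.27 ± 0.36 (0.619 and 0.572). With ranges of label numbers in the model, Psmb9 was -0.56 at 6 h (adjusted p = 0.276), 1.09 at 24 h (0.047, called) and 3.45 at 72 h, and its effect grew by 3.09 from 12 h to 72 h (0.00473, called).

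Per kb of exon, both immunoproteasome transcripts remained below the standard subunits that they replace in every group. The standard subunits Psmb5, Psmb6 and Psmb7 were called at 0 of 5 times each by edgeR, with changes that passed the adjusted p but not the required size for Psmb5 at 24 h (0.42), for Psmb6 at 24 h and 36 h (0.44 and 0.40) and for Psmb7 at the same times (0.34 and 0.58). Per kb of exon, Psmb8 was 0.0119 ± 0.00369 (SD, n = 3) of Psmb5 at Ctr 12 h, 0.0164 ± 0.00979 at Ctr 36 h and 0.0237 ± 0.017 at Ctr 72 h, and 0.0502 ± 0.0148 at SE 12 h, 0.0564 ± 0.011 at SE 24 h, 0.0879 ± 0.028 at SE 36 h and 0.147 ± 0.0187 at SE 72 h. Psmb9 was 0.00867, 0.01 and 0.0194 of Psmb6 in the 3 control groups and 0.0628 ± 0.0105 at SE 72 h. The joined exons are 3414 bases for Psmb8 and 1794 for Psmb5, and 3800 for Psmb9 and 2194 for Psmb6, which lowers both ratios. In counts summed over the libraries, Psmb8 held 1426 against 13962 for Psmb5, and Psmb9 865 against 28243 for Psmb6. The remaining inducible subunit, Psmb10, was called at 0 of 5 times (2 at an unadjusted p under 0.05), and its ratio to Psmb7 had group means of 1.53 to 2.19. This ratio rests on the length of all annotated exons joined, 1732 bases for Psmb10 and 6025 for Psmb7. In counts summed over the libraries Psmb10 was the lower, at 10871 against 22156, so the ratio does not show more Psmb10 than Psmb7.

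**Figure D4:**
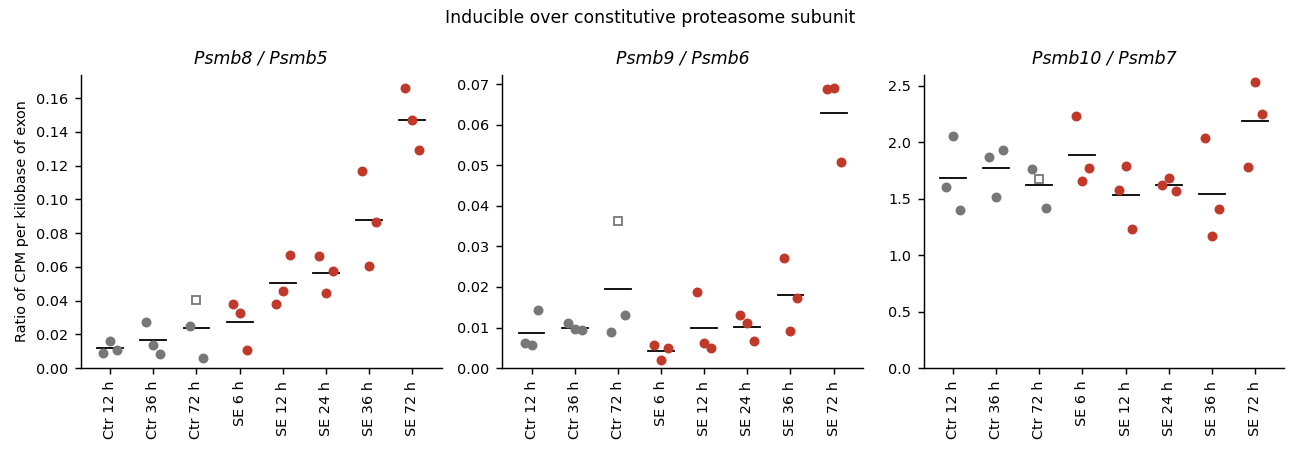
Ratio of each inducible proteasome subunit to the standard subunit it replaces, in CPM per kb of exon (y axis, linear and from 0, each panel with its own range), by group (x axis), with 1 point per library, lines at group means and an open square for Ctr 72 h replicate 2. Psmb8 over Psmb5 rises from a mean of 0.0119 at Ctr 12 h to 0.147 at SE 72 h, and Psmb10 over Psmb7 stays between group means of 1.53 and 2.19. Exon lengths join all annotated exons of a gene, so a ratio above 1 does not show more of the inducible transcript. The size of each ratio depends on these lengths.

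The class II genes differed widely between libraries of a group. H2-Ab1 measured 0.473, 0.276 and 0.232 CPM at Ctr 12 h, 0.144, 0.365 and 1.48 at Ctr 36 h, and 0.338, 3.24 and 0.375 at Ctr 72 h. SE libraries held 1.84, 0.686 and 1.91 CPM at 6 h, 2.68, 3.71 and 0.478 at 12 h, 1.59, 2.00 and 3.22 at 24 h, 2.74, 1.73 and 5.70 at 36 h, and 6.33, 6.68 and 1.41 at 72 h. Of 15 SE libraries, 4 lay above all controls and 12 above all but Ctr 72 h replicate 2. H2-Ab1 was called higher by 1.56 ± 0.57 (6 h, adjusted p = 0.0369), 2.92 ± 0.76 (12 h, 0.00489), 2.15 ± 0.55 (24 h, 0.00391), 2.33 ± 0.70 (36 h, 0.0152) and 2.79 ± 0.81 (72 h, 0.0146). Without the RUVr factor the 72 h value was 1.83 (adjusted p = 0.144), without Ctr 72 h replicate 1 it was 2.39 (0.113), and without SE 36 h replicate 3 the 36 h value was 1.81 (0.0932), and it was 3.55 without Ctr 36 h replicate 3. At 6 h, leaving out SE replicate 1 gave 1.39 (0.111), leaving out SE replicate 3 gave 1.31 (0.163), and leaving out the RUVr factor gave 1.21 (0.175). Of the calls of H2-Ab1, that at 12 h alone held under every alternative that tested the gene.

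Cd74, the invariant chain, was higher at 6 h and 12 h and not called later. It measured 0.0946, 1.24 and 0.387 CPM at Ctr 12 h, 0.503, 0.887 and 2.22 at Ctr 36 h, and 1.01, 11.6 and 3.37 at Ctr 72 h, so that Ctr 72 h replicate 2 lay above 14 of 15 SE libraries. In SE it was 5.11, 1.37 and 5.18 CPM at 6 h, 5.77, 4.44 and 1.27 at 12 h, 0.850, 2.96 and 3.64 at 24 h, 2.15, 0.788 and 7.35 at 36 h, and 12.0, 10.2 and 3.85 at 72 h. The log2FC was 1.58 ± 0.58 at 6 h (adjusted p = 0.0359) and 2.65 ± 0.81 at 12 h (0.0139), then 0.96 ± 0.60, 1.41 ± 0.76 and 1.42 ± 0.79 at 24, 36 and 72 h (0.215, 0.171 and 0.191). Single libraries moved the later values: at 36 h leaving out SE replicate 3 gave 0.32 and leaving out Ctr replicate 3 gave 2.12, and at 72 h it was 0.49 without Ctr 72 h replicate 1 and 2.22 without replicate 2 of that group. The 12 h call was lost when the 12 h groups were fitted on their own (adjusted p = 0.0571), and when either Ctr 12 h replicate 1 (2.23, 0.0584) or replicate 3 (2.35, 0.0632) was left out. The 6 h call was lost when either SE replicate 1 (1.35, 0.127) or SE replicate 3 (1.3, 0.164) of that time was left out. It was also lost without the RUVr factor (1.35, 0.138).

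Levels of both class II genes were set beside the sums of sensory ganglion genes. H2-Ab1 and Cd74 were highest among the Ctr libraries in Ctr 72 h replicate 2, and at SE 36 h and SE 72 h they were higher in the libraries with a ganglion sum of 1030 to 1870 CPM (replicate 3 at 36 h, replicates 1 and 2 at 72 h) than in those at 152 to 187. At 12 h, replicates 1 and 2 held 1430 and 688 CPM of these genes and more of both class II transcripts than replicate 3 at 228. The order was not the same at other times: at 6 h replicate 1, with a sum of 206 CPM, held nearly as much H2-Ab1 and Cd74 as replicate 3 at 728, and at 24 h the sums of 167 to 262 CPM did not follow the order of either gene in replicates 1 and 2. When a score of the ganglion genes replaced the RUVr factor, the log2FC of H2-Ab1 at 72 h was 1.73 (adjusted p = 0.0716), whereas H2-K1 and B2m stood at 2.20 and 2.37 and kept their calls. The part of the ganglion genes in the class II levels was not tested beyond this. Log2 CPM of H2-Ab1 and Cd74 correlated at r = 0.79 over the 24 libraries, that of Tap1 and Cd74 at 0.44.

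Other genes of the pathways were taken from lists and are given by their counts beside the background of all genes above. Of 9 tested non-classical and other class I genes, 2, 2, 3, 5 and 6 were called higher at the 5 times in order, and 2 lower at 24 h, with a median log2FC of 1.86 at 72 h. H2-Q4 was called higher at all 5 times (2.26 at 72 h) and H2-T23 at 24, 36 and 72 h (1.02, 1.66 and 1.86). Fcgrt, the neonatal Fc receptor, was lower at 24 h (-0.98). Of 11 peptide supply and loading genes, 0, 3, 3, 5 and 4 were called higher, with a median of 0.47 at 72 h, among them the loading chaperone Pdia3 at 12, 36 and 72 h (0.73, 0.98 and 0.78). The chaperone Canx was called at 0 of 5 times, its log2FC of 0.24 to 0.35 from 12 h on passing the adjusted p but not the required size, and the peptidase Npepps likewise stayed within 0.31 of controls where it passed that p.

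Of 11 tested other class II genes, 1, 3, 4, 5 and 6 were called higher, with median log2FC of 0.17, 0.16, 0.50, 1.13 and 2.01. They included proteases of the endosome: Ctsl was higher from 12 h (1.91 at 72 h), Lgmn at 24, 36 and 72 h (1.26, 1.80 and 2.05) and Ctss at 36 and 72 h (0.88 and 2.29). The class II alpha chain H2-Aa was called at 12 h (4.22 ± 1.47), with overlapping groups, and H2-Eb1 at 0 of 5 times (1, at 72 h, at an unadjusted p under 0.05). Marchf1, a ligase that removes class II from the surface, was lower at 24 and 36 h (-0.70 and -1.04). Among 5 costimulatory genes, Cd86 and Cd274 were called higher at all 5 times and Icosl lower at 12, 24 and 36 h.

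Of 15 transcriptional regulators, 6, 7, 7, 5 and 7 were called higher at the 5 times. Nlrc5, the class I transactivator, was called at each time (log2FC 2.31, 1.62, 1.88, 2.83 and 2.11). Ciita, the class II transactivator, was called higher at 72 h (1.92 ± 0.65, edgeR adjusted p = 0.0312) and at 0 of the other 4 times, also at an unadjusted p under 0.05. Irf8, a factor of myeloid cells, was called at all 5 times (3.93 at 72 h), and Irf1, an activator of class I genes, from 12 h (0.89, 1.03, 1.26 and 1.35).

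Interferons induce most of the 10 genes in many cell types. In the interferon gamma pathway 7, 7, 10, 10 and 10 of 13 tested genes were higher, with median log2FC of 1.01, 0.94, 1.68, 2.16 and 1.85. In type I interferon signalling 1, 1, 8, 9 and 9 of 10 tested genes were higher, with medians of 0.25, 0.97, 2.56, 3.36 and 2.99. Ifng itself was not analysed here.

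Markers of other cell types were summed in each library. The 10 microglial markers, all tested, summed to 333 to 448 CPM in Ctr libraries. In SE libraries the sums were 247 to 266 CPM (6 h), 272 to 359 (12 h), 491 to 664 (24 h), 653 to 756 (36 h) and 1360 to 2010 (72 h). Of these markers 0, 0, 5, 6 and 10 were called higher and 5, 2, 1, 1 and 0 lower at the 5 times. Of the monocyte and neutrophil list, 5 of 8 genes were tested, and its sum was nearly all fibronectin (Fn1), which is not specific to these cells. The others were low, with Ccr2 at 1.39 ± 2.34 CPM (SD, n = 3) at Ctr 72 h and 3.21 ± 3.35 at SE 72 h and S100a8 at 2.57 ± 2.74 and 2.52 ± 2.41. Astrocyte markers, 6 of 6 tested, summed to 2110 to 2500 CPM in Ctr, 3400 to 4120 at SE 6 h and 10200 to 11800 at SE 72 h, with 1, 2, 2, 3 and 3 called higher and 0, 0, 3, 2 and 0 lower at the 5 times. Markers of border macrophages, 5 of 6 tested, summed to 3.12 to 20.3 CPM in Ctr, with Ctr 72 h replicate 2 highest, and to 5.73 to 27.6 in SE, and those of dendritic cells, 5 of 7 tested, to 36 to 46.9 and 22 to 54.8. T cell markers, 5 of 12 tested, summed to 2.46 to 6.37 CPM in Ctr and 3.36 to 8.41 in SE, and 0 of 6 markers of natural killer cells passed the filter. Single genes held much of some sums. Over all libraries Zbtb46 held 7268 and Siglech 4224 counts of the dendritic list, where Clec9a held 108. Lck held 752 counts of the T cell list and Gfap 1065346 of the astrocyte list. Such sums are therefore not levels of the named cells. The part of these cells in the 10 genes' values was not tested.

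**Figure D5:**
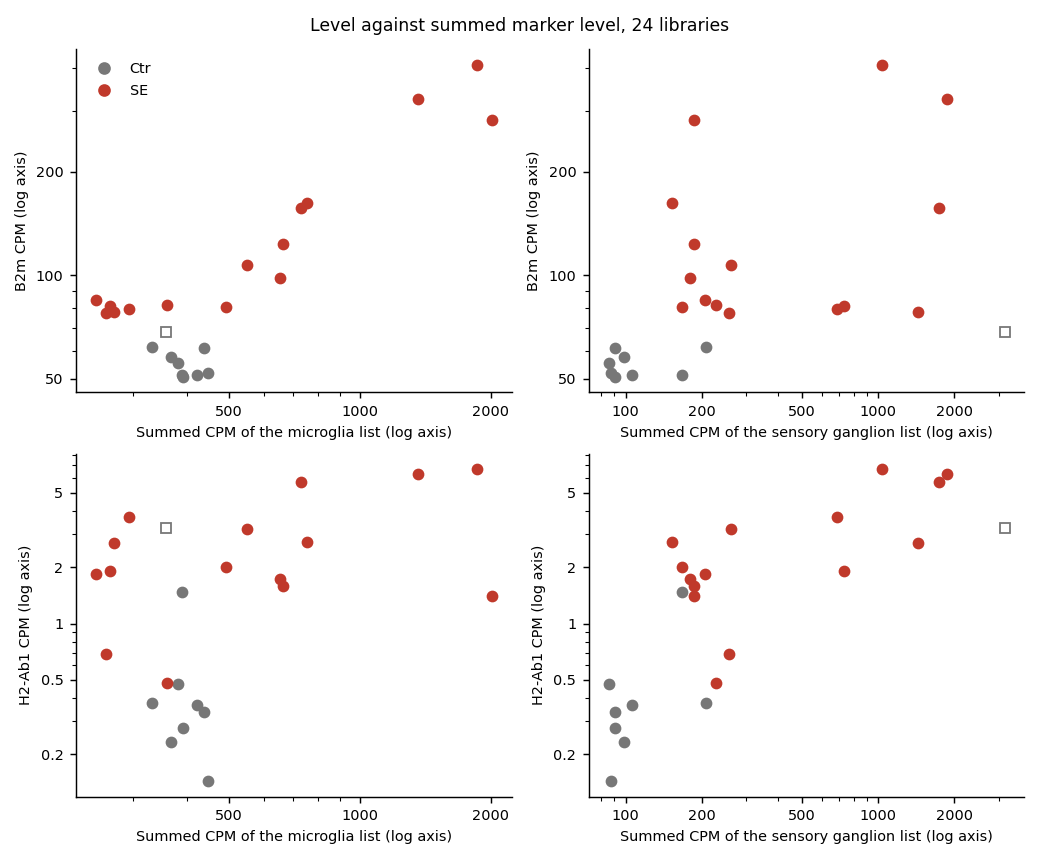
CPM of B2m (upper panels) and H2-Ab1 (lower panels) in each of the 24 libraries (y axis, log scale) against the summed CPM of the microglial (left) or sensory ganglion (right) marker list (x axis, log scale), with Ctr in grey, SE in red and an open square for Ctr 72 h replicate 2. The 3 SE 72 h libraries lie highest in B2m, at 1360 to 2010 CPM of microglial markers, and Ctr 72 h replicate 2 lies farthest right in ganglion genes, at 3160 CPM.

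Among 13719 genes whose mean log2 CPM reached 1, those whose levels were most like B2m over the 24 libraries were Mpeg1, a pore-forming protein of macrophages (r = 0.977), Dhrs1 (0.955), Kif11 (0.955), the lysosomal protease Ctsd (0.954) and C1qc, a subunit of complement C1q (0.954). For H2-Ab1 they were Slc66a3 (0.863), Peds1 (0.863), Runx1 (0.849), Snx6 (0.847) and Col3a1 (0.846). Within the 15 SE libraries the latter 5 had r of 0.794, 0.707, 0.52, 0.711 and 0.627. The libraries share groups and, for H2-Ab1, counts are low, so these values are descriptions.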

How the data were processed

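Per the labels and the study's methods, polyA RNA libraries without strand marking were sequenced in pairs, trimmed with Trim Galore 0.6.6, aligned with STAR 2.7.8a to GRCm39 with GENCODE annotation, and counted per gene with HTSeq 0.13.5 (SAMtools 1.10). The authors deposited these raw read counts, 1 column per library. Symbols were matched for 18552 of 18647 Ensembl identifiers. Samples were grouped by their labels. Nothing in the labels states more about the separation of replicates than that they are separate samples, so p-values measure the spread between these samples.

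The counts were filtered by expression, scaled by TMM and fitted over all 24 libraries with edgeR 4.0.16 (R 4.3.3), using the quasi-likelihood test, 1 RUVr factor and Benjamini-Hochberg adjustment over 18153 genes. CPM and ratios were computed from the counts, and log2 CPM used a prior count of 2. The fit was tested on simulated counts for SE 36 h against Ctr 36 h, without unwanted variation, so the 72 h comparisons were not covered. Values per kb of exon used the length of all annotated exons of a gene joined, which can exceed the length of its transcripts. DESeq2 1.42.0, limma-voom (limma 3.58.1), other scalings, filters and sample sets were alternatives. Named were the 10 genes, the 4 most abundant genes of each pathway list, 12 further regulator, class II and proteasome genes, and the 5 genes most like each of B2m and H2-Ab1. A gene named by this rule is not reported here. The genes and lists were chosen with earlier results of these data known.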

Additional observations from a re-analysis of the deposited data

Results flagged for a closer look

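For 4 of the 10 genes the effect of SE differed between time points by a test of the difference itself (edgeR's quasi-likelihood test, Benjamini-Hochberg adjusted over all genes, 3 libraries per group). B2m, the class I light chain, grew in effect by 0.89 on the log2 scale from 12 h to 36 h (adjusted p = 0.0363), by 0.97 from 36 h to 72 h (0.0198) and by 1.86 from 12 h to 72 h (3.48e-05). Tapbp, the loading factor tapasin, grew by 1.07 from 12 h to 36 h (0.0164) and by 1.1 from 12 h to 72 h (0.00255). The heavy chains H2-K1 and H2-D1 grew by 1.33 (0.00214) and 1.00 (0.0168) from 12 h to 72 h. Of all genes, 1.99%, 3.69% and 12.3% were called higher for the growth from 12 h to 36 h, 36 h to 72 h and 12 h to 72 h. Both shorter growths of B2m, that of Tapbp to 36 h and that of H2-D1 missed the threshold without single libraries, as given above. Those of B2m and H2-D1 also missed it with ranges of label numbers in the model. The 3 contrasts share groups and so are not independent of each other.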

How the results depend on the processing

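Of 1034 values of single genes under other settings, 964 kept direction and call, 53 lost the call, 13 gained one and 4 turned. Tapbp at 12 h, at -0.05, ran from -0.13 to 0.11 when single libraries were dropped (0.11 without Ctr 12 h replicate 2, also positive at 0.03 without SE 12 h replicate 3). Psmb9 at 12 h, at 0.30, ran from -0.49 (without SE 12 h replicate 1) to 0.97, and was -0.26 when a score of the ganglion genes replaced the RUVr factor. Requiring 10 counts in every library took Tap1, Psmb8, Psmb9, H2-Ab1 and Cd74 out of the test and left 2, 2, 3, 5 and 5 genes higher at the 5 times in order. At 12 h, 3 were higher when the groups compared were fitted alone. At 6 h, 2 were higher without the RUVr factor, with ranges of label numbers in the model, and against Ctr 36 h only, and the cause was not tested. The 2 calls between control groups became 0 without the RUVr factor, with limma-voom, with ranges of label numbers, with the ganglion score and without both Ctr 72 h replicate 2 and SE 72 h replicate 1 (an alternative, like the score, chosen after seeing the data), and 4 with DESeq2.

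When each library was dropped in turn, genes called higher numbered 1 to 4 at 6 h, 4 to 6 for 12 h, 6 to 7 for 24 h, and 7 to 9 for both 36 h and 72 h. The 6 h count was 1 without SE 6 h replicate 1, and it was 2 without replicate 3 of the same group, Ctr 12 h replicate 3, Ctr 36 h replicate 1 or 2, or Ctr 72 h replicate 1. There were 3 to 5 calls between SE times, 5 to 8 for a difference of the effect and 0 to 3 between control groups.

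With the replicate number as a block, 3 genes were higher at 6 h (H2-Ab1 lost, adjusted p = 0.0533), 5 for 12 h, 6 for 24 h, and 9 for both 36 h and 72 h, with 4 calls between SE times, 7 for a difference of the effect and 2 between controls. Deviations of same-numbered SE and Ctr libraries correlated at 0.08, 0.18 and 0 (12 h), 0.16, 0.03 and 0.17 (36 h), and -0.20, 0.06 and 0.16 (72 h), so the numbers were not taken as pairing. Low counts limit Psmb8, Psmb9, H2-Ab1 and Cd74, and the 2 shallowest libraries are of Ctr 72 h.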
